A study of Mus musculus with 56 samples.

Results

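Gene expression of mouse cortical neurons in culture was compared after inhibition of topoisomerase I by the drug topotecan and after knockdown of the gene that encodes it, Top1. The comparison took all 18 arrays that the labels place in its 4 groups, of 56 arrays in the series. These were 6 arrays of topotecan at 1 µM, 6 of its vehicle, 3 of a short hairpin RNA (shRNA) against Top1 and 3 of control shRNA, which the study's design text describes as scrambled. Neurons of all 4 groups came from C57BL6 embryos of embryonic day 13 to 15 and were kept 7 days in vitro. The shRNAs were delivered by lentivirus, and the labels do not say which share of the cells took one up. The protocol names drug exposures of 24 and 72 h without assigning one to these arrays, and gives no time for the shRNA, so the durations of the 2 treatments cannot be matched. Nothing states that replicates were separate cultures, and p-values then measure the spread between arrays, which may be technical. The subject is, gene by gene, the effect of the drug (topotecan minus vehicle), the effect of the knockdown (Top1 shRNA minus control shRNA), and the difference between them (drug effect minus knockdown effect), all in log2 of the array intensity. The 2 effects share no array.

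Topoisomerase I nicks 1 strand of the DNA, lets the helix turn, and seals it again. By doing so it removes the twist that builds up ahead of and behind a moving RNA polymerase. Topotecan, a camptothecin derivative, binds the enzyme while it holds the nicked strand and keeps the nick from being sealed. The enzyme is then both inactive and trapped on DNA. An shRNA lowers the amount of the enzyme's mRNA instead and leaves no trapped complexes. In neurons, topotecan is known to lower the RNA of very long genes, many of which encode synaptic and adhesion proteins, and to release the silenced paternal copy of Ube3a.

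Top1 itself was the check of the knockdown. Its level was 7.62, 8.39 and 8.29 in Top1 shRNA replicates 1, 2 and 3, against 8.98, 8.46 and 8.55 in the control shRNA replicates of the same numbers. Replicate by replicate the change was thus -1.36, -0.07 and -0.27, or 2.57-fold, 1.05-fold and 1.2-fold lower. Only replicate 1 had a clear fall in Top1 RNA, and the protein was not measured. In topotecan arrays Top1 ranged over 9.23, 9.43 and 9.47 (lowest, median, highest), against 9.12, 9.18 and 9.23 in vehicle. The knockdown effect was -0.57 ± 0.16 (SE, limma adjusted p = 0.00649) and the drug effect 0.22 ± 0.11 (adjusted p = 0.15). The 2 effects on Top1 differed by 0.79 ± 0.19 (adjusted p = 0.00471). The p-value of the difference was 0.013 with weights per experiment, and the difference was 0.39 without either array of replicate 1.

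**Figure D1:**
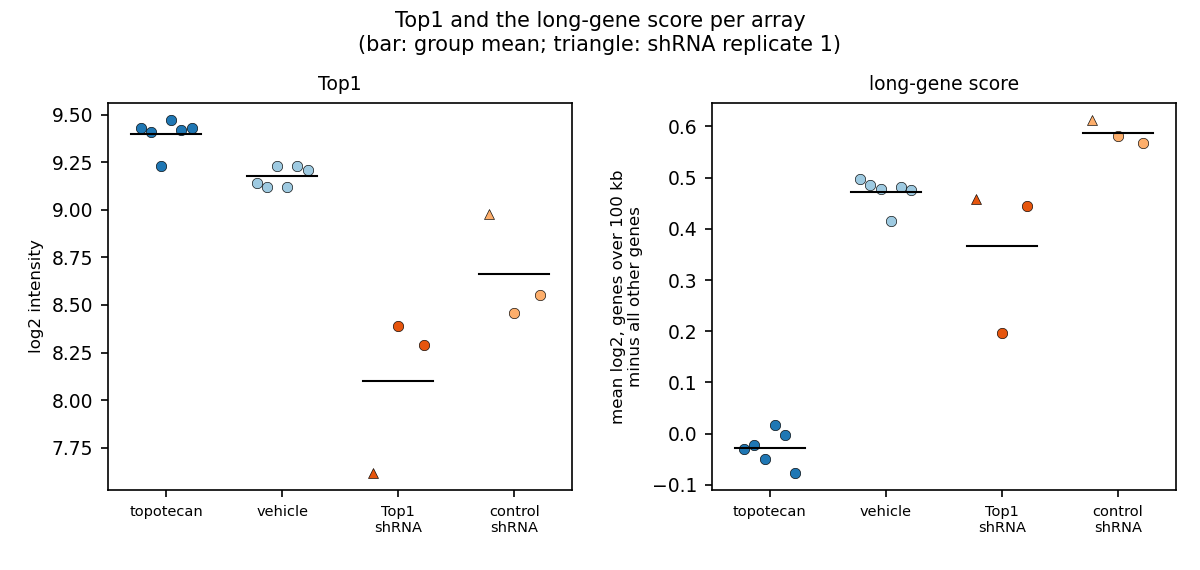
Left: log2 intensity of Top1 on each array. Right: the long-gene score of each array, the mean log2 level of genes longer than 100 kb less the mean of the remaining genes. Points are arrays, bars group means, and triangles shRNA replicate 1. The Top1 shRNA array with the lowest Top1 (7.62, replicate 1) has a score of 0.459, and the one with the lowest score (0.196, replicate 2) has the highest Top1 of the 3 (8.39).

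Several properties of the arrays bear on every result. Mean intensities were 177.5 to 183.3 on 14 arrays and 137.8 to 143.1 on the other 4, which were replicates 2 and 3 of both shRNA groups, so array set was a term of the fit. The spread between replicates was larger in the knockdown experiment: the median residual SD was 0.239 with the array sets removed, against 0.147 in the topotecan experiment. The fit assumes 1 spread for both, which makes p-values of the knockdown and of the difference too small for many genes. Counts are therefore followed by those of the same fit with weights of 1.54 for the arrays of the topotecan experiment and 0.422 for those of the shRNA experiment ("weighted"). Vehicle replicate 4 stood apart, with an SD of 0.29 from the mean of the other vehicles, against 0.13 to 0.18 for the others. A lower level in a culture can mean fewer cells of a type or less RNA per cell, and these cannot be told apart here.

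The effects of drug and knockdown agreed in part. Of 13308 genes tested at an adjusted p of 0.05, topotecan changed 3784 (28.4%), lowering 2102 (15.8%) and raising 1682 (12.6%). The knockdown changed 6765 (50.8%), lowering 3525 (26.5%) and raising 3240 (24.3%). The arrays of the 2 groups did not overlap for 19.1% of genes in the topotecan experiment and for 30% in the shRNA experiment. Both lowered 1171 genes (8.8%), 55.7% of those that topotecan lowered and 33.2% of those that the knockdown lowered. Both raised 794 genes (5.97%), 47.2% of those that topotecan raised and 24.5% of those that the knockdown raised. Another 323 genes (2.43%) were lower with the drug and higher with the knockdown, and 122 (0.917%) the reverse. In total 2410 genes (18.1%) were called in both effects, 1965 (14.8%) in the same direction and 445 (3.34%) in opposite directions. Weighted, 967 genes (7.27%) were lower in both, 686 (5.15%) higher in both, 291 (2.19%) lower with the drug and higher with the knockdown, and 96 (0.721%) the reverse. Across genes, which are not independent replicates, the 2 effects had a Pearson correlation of 0.44 (Spearman 0.43). With the knockdown effect of 1 replicate in place of the mean, r was 0.21, 0.54 and 0.36 for replicates 1, 2 and 3. The replicate with the clear fall in Top1 had the lowest of the 3 correlations.

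The difference between the effects passed the threshold for 4517 genes (33.9%). It was negative, the drug effect being the lower, for 2486 (18.7%) and positive for 2031 (15.3%). Weighted, 2320 genes (17.4%) passed, 1503 (11.3%) with a negative and 817 (6.14%) with a positive difference. Of the 4517, 2879 (21.6% of genes tested) were called in the knockdown only, 428 (3.22%) in the drug only, 1067 (8.02%) in both, and 143 (1.07%) in neither. Among genes called in the same direction in both, 622 (4.67%) had a called difference. They include 104 (0.781%) whose fall was larger with the drug and 209 (1.57%) whose fall was larger with the knockdown. The other 1343 (10.1%) had no called difference, which does not show that their effects were equal.

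**Figure D2:**
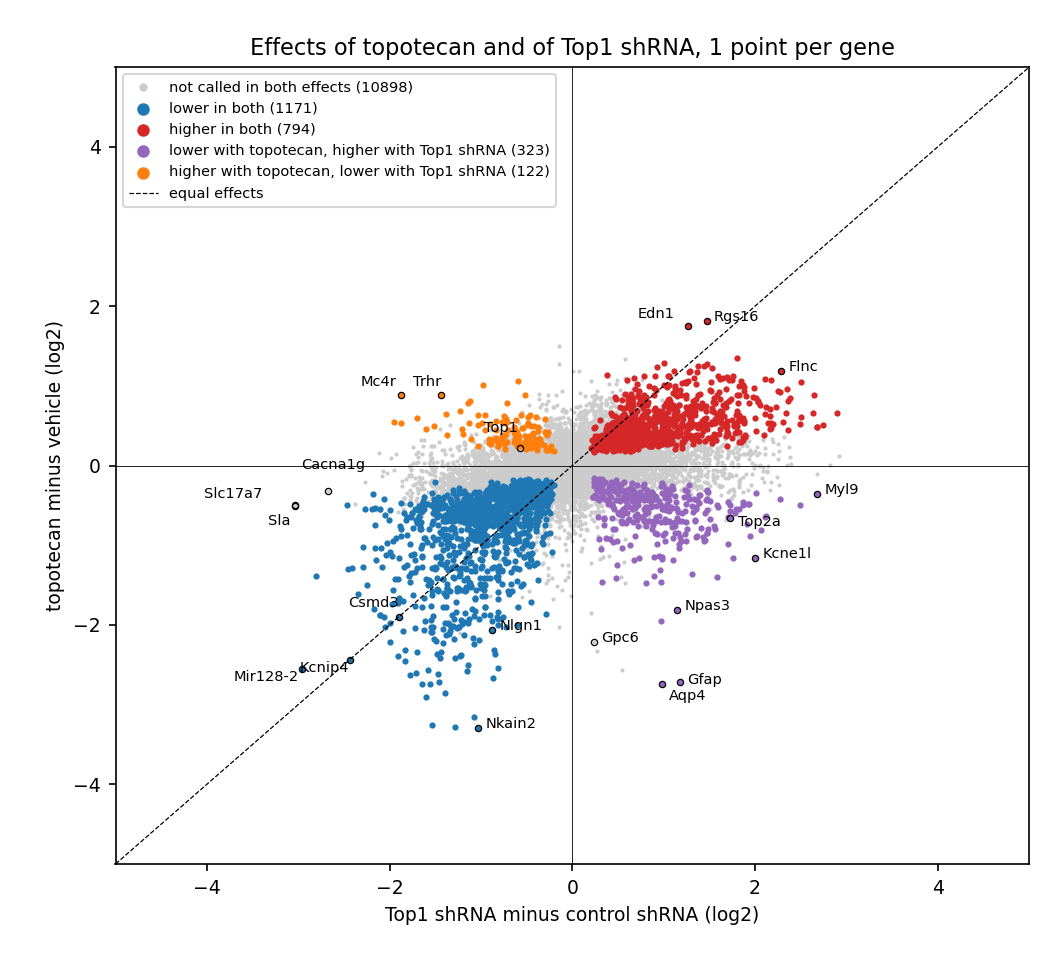
Drug effect (vertical) against knockdown effect (horizontal), both log2, for 13308 genes. Blue, lower in both (1171). Red, higher in both (794). Purple, lower with topotecan and higher with Top1 shRNA (323). Orange, the reverse (122). Grey, all other genes. Csmd3 and Kcnip4 lie on the dashed line of equal effects, Nkain2 and Nlgn1 below it, and Gfap, Aqp4 and Npas3 in the opposite quadrant.

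Of the shared falls described here, 3 are microRNA genes, short RNAs that pair through their seed with target mRNAs. Mature sequences from RefSeq (GRCm38.p6) are printed to show which RNAs these are, with the seed (bases 2 to 8) in capitals. Mir128-2 lies at chr9:112118644-112118664 (miR-128-3p) and chr9:112118679-112118701 (miR-128-2-5p), minus strand. Mir876 lies at chr4:36645383-36645404 (3p) and chr4:36645422-36645443 (5p), minus strand. Mir9-2 lies at chr13:83738821-83738843 (5p) and chr13:83738858-83738879 (3p), plus strand.
mmu-miR-128-3p: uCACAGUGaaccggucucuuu
mmu-miR-128-2-5p: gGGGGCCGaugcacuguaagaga
mmu-miR-876-3p: uAGUGGUUuacaaaguaauuca
mmu-miR-876-5p: uGGAUUUCucugugaaucacua
mmu-miR-9-5p: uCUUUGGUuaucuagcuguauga
mmu-miR-9-3p: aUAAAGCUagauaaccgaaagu
No 2 of the 6 share a seed.

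Mir128-2 had levels of 3.24, 3.55 and 4.58 (lowest, median, highest) in topotecan and 5.62, 6.14 and 6.96 in vehicle. It had 4.23, 2.36 and 5 in Top1 shRNA and 6.83, 6.55 and 7.08 in control shRNA. Neither pair of groups overlapped. The drug effect was -2.55 and the knockdown effect -2.96, 5.85-fold and 7.76-fold lower, with a difference of 0.41 (95% interval -0.87 to 1.69). Mir876 changed by -2.02 and -2.05, and Mir9-2 by -1.42 and -1.41. All treated levels of Mir128-2 lay under 5.01, the limit on the mean level below which genes were left out. So did the treated means of Mir876 (3.6 in topotecan, 4.29 in Top1 shRNA). At such low levels the sizes of the falls, and how alike they are, are uncertain. Each microRNA gene lies within a longer gene on the same strand, and that gene fell in both as well. These were Arpp21 (171.2 kb) for Mir128-2 with -1.49 and -1.56, Lingo2 (1255 kb) for Mir876 with -1.95 and -1.61, and C130071C03Rik (19.9 kb) for Mir9-2 with -0.63 and -0.75. The arrays were hybridised with total RNA, and whether these probe sets read mature microRNA, its hairpin or the longer transcript was not tested.

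The shared falls of protein-coding genes were led by very long genes of synapses and axons. By the smaller of the 2 effects the first 10 were Mir128-2, Kcnip4, Mir876, Cdh12, Frmpd4, Cntn5, Csmd3, Tenm1, Kcnq3 and Nxph1, and the 8 coding genes among them span 300.3 to 1270.6 kb. Csmd3, a large transmembrane protein of the synapse, had 5, 5.26 and 5.56 in topotecan and 6.61, 7.25 and 7.5 in vehicle. It had 6.65, 5.63 and 6.26 in Top1 shRNA and 8.83, 7.71 and 7.71 in control shRNA. All treated arrays lay below all of their controls. Both effects were -1.9, or 3.74-fold lower, with a difference of 0 (95% interval -0.52 to 0.52).

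Kcnip4, a calcium-binding partner of potassium channels, fell by 2.44 on the log2 scale with the drug and by 2.43 with the knockdown. Its knockdown effect by replicate was -1.71, -3.88 and -1.71. Frmpd4, a scaffold protein of dendritic spines, changed by -1.98 and -1.99. Kcnq3, a subunit of the potassium channel that carries the M current, changed by -1.87 and -2.11, and the secreted neurexin ligand Nxph1 by -1.87 and -2.1. Replicate 2 had the deepest fall in 8 of these 10 genes, and replicate 1 or 3 in Csmd3 and Nxph1. Fgf14, a modulator of sodium channels (703.2 kb), and the ephrin receptor Epha3 (320.6 kb) had equal effects to 2 decimals, -1.42 and -1.14. Their intervals of the difference reached about 0.5 either way (-0.54 to 0.53 for Fgf14 and -0.49 to 0.49 for Epha3). Tenm1 has several probe sets. The brightest had effects of -1.9 and -2.06, while the one brightest in control arrays had -3.4 and -2.24, a difference of -1.17, so the call of equal effects depends on the probe set.

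Genes raised by both (5.97% of all genes) were rare among the longest genes. They were 260 of 3590 genes under 10 kb and 491 of 7704 genes of 10 to 100 kb. At 100 to 200 kb they were 38 of 1148 genes, and over 200 kb 5 of 840. Over 200 kb the drug raised only 8 genes, so no more than 8 could be shared, while the knockdown raised 158 (18.8%). The first 10 genes raised by both, by the smaller effect, were Rgs16, Olfr1184, Pla2g10os, Edn1, Hspb1, Sly, Vmn1r159, Flnc, Vmn1r91 and Clcf1, of 0.9 to 28.7 kb. Rgs16, which shortens signalling by G proteins, had 9.7, 9.97 and 10.18 in topotecan and 7.8, 8.11 and 8.62 in vehicle. It had 8.72, 9.14 and 9.09 in Top1 shRNA and 7.85, 7.22 and 7.47 in control shRNA. Neither pair overlapped, and the effects were 1.82 and 1.47, a difference of 0.35 (95% interval -0.14 to 0.83).

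Clcf1, a cytokine of the interleukin 6 family, rose by 1.18 with the drug and 1.37 with the knockdown. The rise in Top1 shRNA was 0.91, 1.73 and 1.47 by replicate. Edn1, the vasoconstrictor peptide endothelin 1, rose by 1.75 and 1.27. Hspb1, a small heat shock protein, rose by 1.25 and 1.38, with 0.09 in shRNA replicate 1. Flnc, an actin crosslinker, rose by 1.19 and 2.29, and the difference of -1.1 (adjusted p = 0.00266) was not called when weighted (adjusted p = 0.0677). Olfr1184, Pla2g10os and Sly had knockdown effects below 0 in replicate 1 (-0.14, -0.3 and -0.47). Cdkn1a, the cell cycle inhibitor p21 and a target of p53, rose by 0.45 with the drug and by 0.69 with the knockdown, which was 0.1, 1.19 and 0.77 by replicate.

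Gene length ordered both effects, and the drug's more steeply. In 840 genes over 200 kb the median drug effect was -0.68 and the median knockdown effect -0.45, against -0.01 and -0.02 over all genes tested. Of these, 428 (51%) were lower in both, against 8.8% of all genes, and 97 (11.5%, against 2.43%) were lower with the drug and higher with the knockdown. The drug lowered 688 of the 840 (81.9%, against 15.8% of all genes). The knockdown raised 158 (18.8%), a smaller share than the 24.3% of all genes. The difference was negative for 348 (41.4%, against 18.7%) and positive for 45 (5.36%, against 15.3%), or 248 and 18 weighted. The knockdown medians over these genes were -0.26, -0.67 and -0.41 for replicates 1, 2 and 3. At 200 to 400 kb the medians were -0.55 with the drug and -0.22 with the knockdown. At 400 to 800 kb they were -1.04 and -0.81, and in 82 genes over 800 kb -1.76 and -1.05. The quartiles of the knockdown effect spanned 0 up to 400 kb, from -0.84 to 0.3 in the 200 to 400 kb class. Within genes over 200 kb the correlation of the effects was 0.57, against 0.45 in genes under 10 kb.

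**Figure D3:**
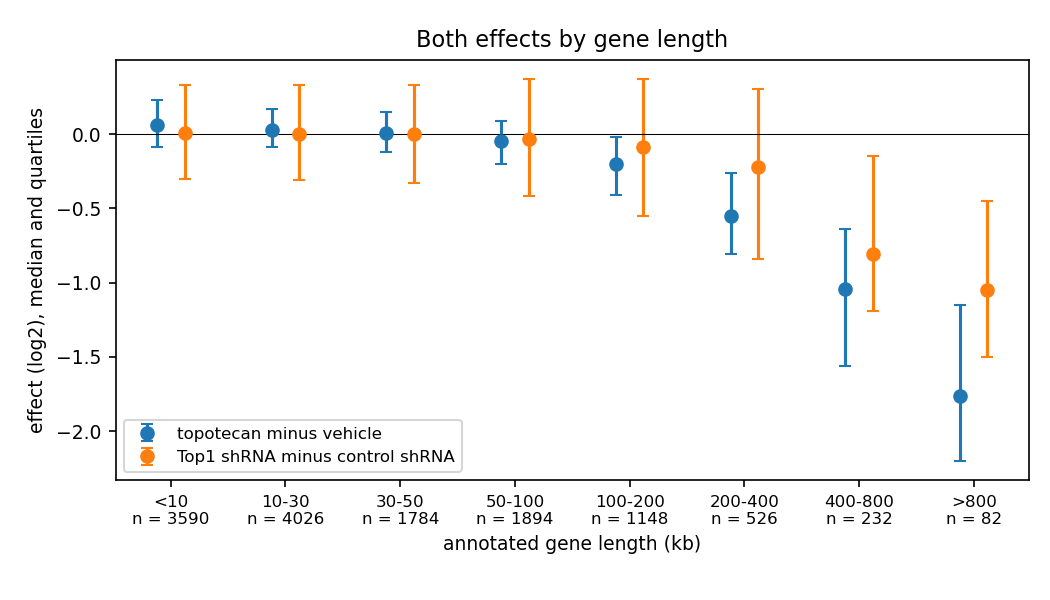
Median effect (points) with quartiles (bars), in log2, by class of annotated gene length, for topotecan (blue) and Top1 shRNA (orange). Both medians are near 0 under 50 kb and fall with length, to -1.76 with topotecan and -1.05 with Top1 shRNA over 800 kb.

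The long-gene score of an array put this shift into 1 value per array. It averaged -0.027 ± 0.033 in topotecan and 0.472 ± 0.029 in vehicle (SD, n = 6 each), without overlap, a difference of -0.5 (exact 2-sided permutation p = 0.00216, the smallest that 924 arrangements allow). It averaged 0.367 ± 0.148 in Top1 shRNA and 0.587 ± 0.023 in control shRNA (SD, n = 3 each), also without overlap, a difference of -0.221 (exact permutation p = 0.1, the smallest possible). Each drug difference between arrays of the same number lay between -0.552 and -0.399, and the 3 knockdown differences were -0.153, -0.386 and -0.123. The drug effect on the score was lower than the knockdown effect by a difference of -0.279 (exact permutation p = 0.0119, the smallest that 84 arrangements allow), with the knockdown difference nearest to the drug's in replicate 2. That test used differences between arrays of the same number, although the numbers do not pair them. With each treated array set against the mean of its controls, a variant chosen after the data were seen, the difference is the same by construction. The exact permutation p was again 0.0119. That variant leaves out the spread of the control arrays and uses an shRNA control mean over both array sets, so it is no independent repeat of the test.

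A list of 82 very long genes, 76 of them measured, held cases of a larger drug effect. Of the 76, 66 were lower in both (86.8%, against 51% of genes over 200 kb). The drug effect was the lower for 34 and the higher for 2 (23 and 0 weighted). The 34 are 44.7% of the list, near the 41.4% of genes over 200 kb, against 18.7% of all genes. The 34 became 52 without Top1 shRNA replicate 2. Nkain2, a protein that binds the sodium pump, had 6.57, 7.05 and 7.14 in topotecan and 10.02, 10.33 and 10.37 in vehicle. It had 9.38, 8.59 and 9.62 in Top1 shRNA and 9.64, 10.49 and 10.54 in control shRNA. Neither pair overlapped, but the topotecan arrays lay far below their vehicles and Top1 shRNA replicate 1 just below its control. The drug lowered it 9.81-fold and the knockdown 2.04-fold, a difference of -2.27 ± 0.29 (adjusted p with weights = 0.000266).

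Nlgn1, the postsynaptic adhesion molecule neuroligin 1 (911.1 kb), had 6.62, 6.97 and 7.17 in topotecan and 8.72, 9.04 and 9.26 in vehicle. It had 8.78, 7.4 and 8.47 in Top1 shRNA and 9.01, 9.05 and 9.25 in control shRNA. The effects were -2.06 and -0.88, a difference of -1.18 ± 0.29 (adjusted p = 0.00484, weighted 0.026). Csmd1, a relative of Csmd3, changed by -3.16 and -1.08, and Mdga2, which binds neuroligins, by -2.66 and -0.87. Gpc6, a heparan sulfate proteoglycan that astrocytes secrete, fell by 2.21 with the drug, and its knockdown effect of 0.24 did not pass the threshold (adjusted p = 0.18). Cntnap2, a neurexin relative of axons, changed by -1.94 and -1.22, and its difference of -0.72 (95% interval -1.65 to 0.22) was not called. Its knockdown effect was 0.09, -2.38 and -1.37 by replicate.

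**Figure D4:**
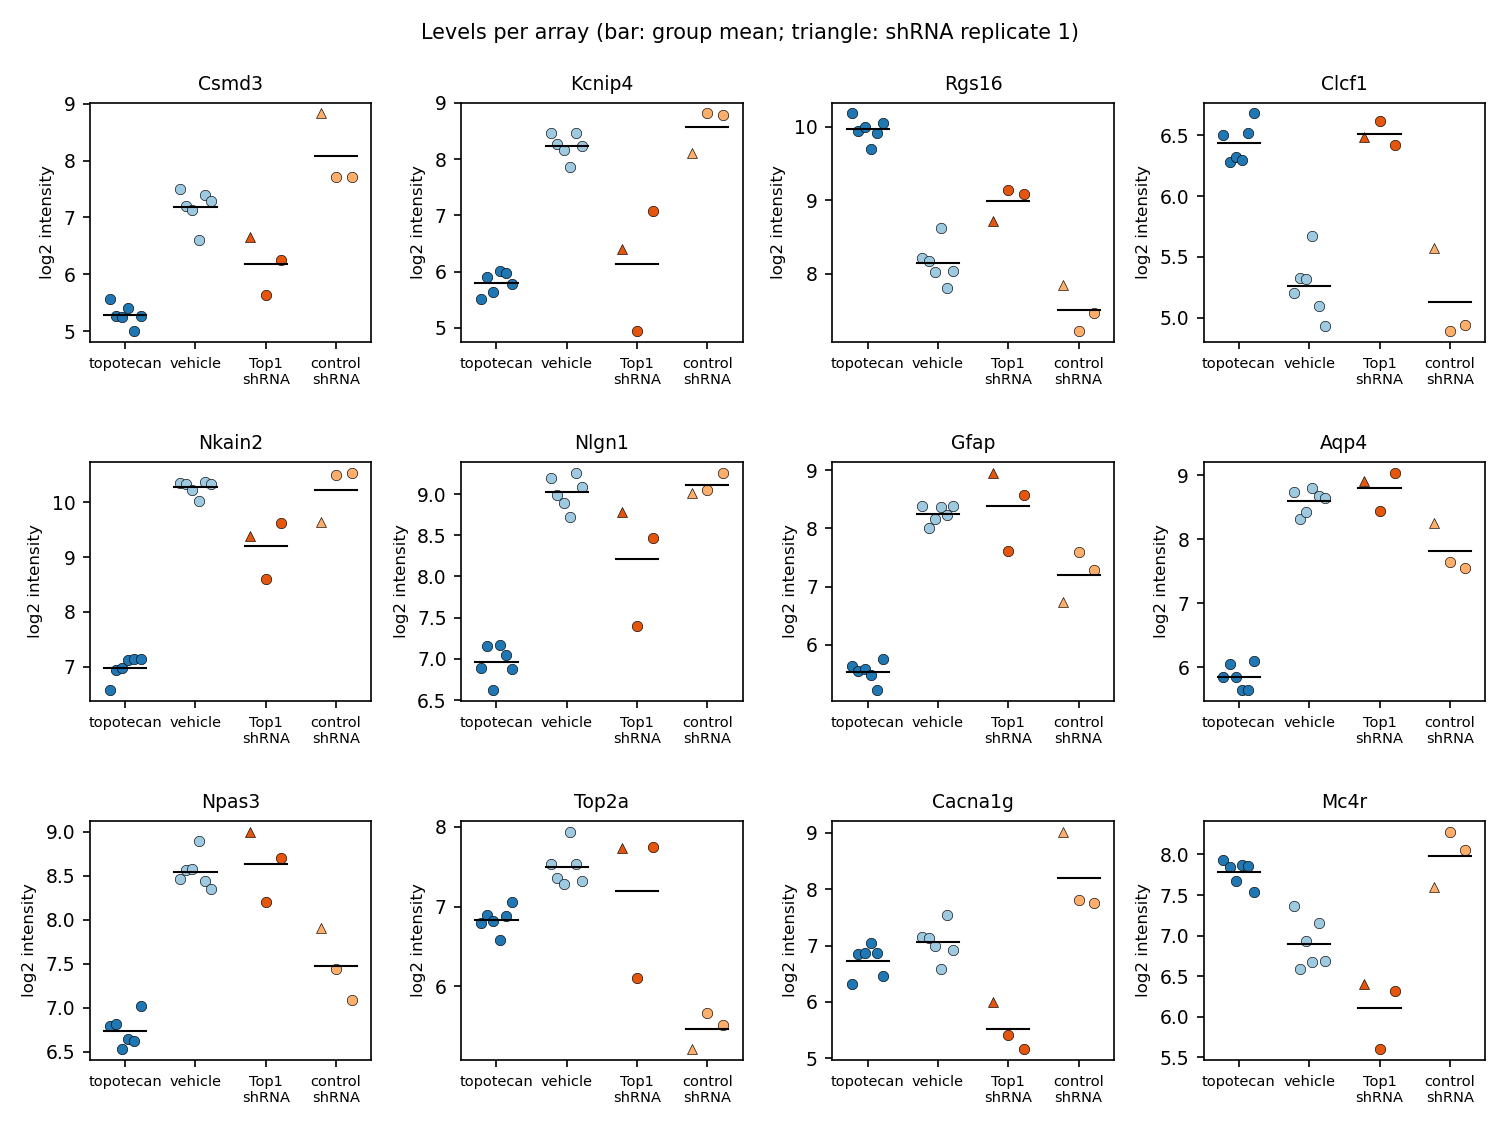
Log2 intensity of 12 genes on each array, with topotecan, vehicle, Top1 shRNA and control shRNA from left to right. Bars are group means and triangles shRNA replicate 1. Csmd3, Kcnip4, Rgs16 and Clcf1 move alike in both pairs. Nkain2 and Nlgn1 fall further with topotecan. Gfap, Aqp4, Npas3 and Top2a are lower in topotecan and higher in Top1 shRNA than in their controls. Cacna1g falls with Top1 shRNA, and Mc4r is higher with topotecan and lower with Top1 shRNA.

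Genes that went in opposite directions included many of astrocytes, the glial cells that take up potassium and glutamate. Of 19 measured astrocyte markers the drug lowered 13 (68.4%, against 15.8% of all genes) and the knockdown raised 11 (57.9%, against 24.3%). Of the 19, 9 were lower with the drug and higher with the knockdown (47.4%, against 2.43%), or 7 weighted. Another 2 were lower in both and 1 higher in both. The difference was negative for 13 (68.4%, against 18.7% of all genes) and positive for none, and both counts of differences held when weighted. The median effects were -0.66 and 0.43, the latter 0.68, 0.15 and 0.45 by shRNA replicate. The mean level of the list was 7.75 to 7.89 in topotecan and 8.59 to 8.79 in vehicle, and 8.39 to 9.13 in Top1 shRNA and 8.14 to 8.28 in control shRNA.

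Gfap, the intermediate filament of astrocytes, had the largest negative difference of all named genes. It had 5.22, 5.56 and 5.76 in topotecan and 8.01, 8.3 and 8.39 in vehicle. It had 8.96, 7.61 and 8.57 in Top1 shRNA and 6.73, 7.59 and 7.28 in control shRNA. The drug effect was -2.72, the knockdown effect 1.18 (2.23, 0.02 and 1.29 by replicate), and the difference -3.9 ± 0.32 (adjusted p with weights = 3.34e-06). The knockdown effect on Gfap was not called when the shRNA experiment was fitted alone. Aqp4, the water channel of astrocyte endfeet, had 5.64, 5.85 and 6.09 in topotecan and 8.32, 8.66 and 8.8 in vehicle. It had 8.91, 8.44 and 9.04 in Top1 shRNA and 8.26, 7.64 and 7.55 in control shRNA. Both pairs of groups were apart for Aqp4, in opposite directions, with effects of -2.74 and 0.98.

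The potassium channel Kcnj10 changed by -1.95 and 0.97, the acyl-CoA synthetase Acsbg1 by -1.46 and 0.97, and the transcriptional regulator Id3 by -0.98 and 1.17. Npas3 (824.1 kb), a transcription factor of neural progenitors and astrocytes, had 6.53, 6.72 and 7.02 in topotecan and 8.35, 8.51 and 8.89 in vehicle. It had 9, 8.2 and 8.7 in Top1 shRNA and 7.91, 7.44 and 7.09 in control shRNA. Its effects were -1.81 and 1.15. Of the 76 very long genes, 5 (6.58%) were likewise lower with the drug and higher with the knockdown, or 3 weighted. The share was 11.5% in genes over 200 kb and 2.43% in all genes. The drug lowered 98.7% of the very long genes, 81.9% of genes over 200 kb and 15.8% of all genes. Slc39a12, a zinc transporter, changed by -1.4 and 1.58, Kcne1l, a potassium channel subunit, by -1.16 and 2, and the growth factor binding protein Igfbp5 by -1.04 and 1.17. Pard3b, a polarity protein, changed by -0.8 and 1.26 on its brighter probe set, and the dimmer one did not show this (0.08 and -0.04).

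Genes of dividing and mesenchymal cells rose with the knockdown, while the drug called fewer of them. The knockdown raised 26 of 27 measured genes of proliferating cells (96.3%, against 24.3% of all genes). The drug lowered 5 of them (18.5%, against 15.8%) and raised 1, where it raised 12.6% of all genes. Weighted, 10 of the 27 were lower with the drug and higher with the knockdown. The difference was negative for 25 (92.6%, against 18.7%), or 23 weighted. The knockdown raised 17 of 19 markers of fibroblasts, meninges and mural cells (89.5%). The drug lowered 2 of them (10.5%) and raised 3, and weighted 3 went in opposite directions in this way. The difference was negative for 18 (94.7%), or 14 weighted. Counts without 1 array ranged over 24 to 26 and 16 to 18. In both lists the control shRNA arrays were the low group. The mean level of proliferating cell genes was 6.69 to 7.07 in topotecan and 6.96 to 7.56 in vehicle, and 7.35, 6.41 and 7.42 in Top1 shRNA and 5.8, 5.85 and 5.7 in control shRNA. That of the fibroblast list was 7.77 to 8.33 and 8.07 to 8.43, and 8.79, 8.72 and 8.4 against 6.65, 7.34 and 7.32. Within array set 1, which held all topotecan and vehicle arrays and shRNA replicate 1, control shRNA was below every vehicle array in both lists. There Top1 shRNA lay within the range of vehicle for proliferating cell genes and above it for the fibroblast list. Whether control shRNA cultures held fewer dividing and mesenchymal cells was not tested.

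Top2a, the topoisomerase II of dividing cells, was 1 of these genes. It had 6.58, 6.85 and 7.06 in topotecan and 7.29, 7.44 and 7.94 in vehicle. It had 7.74, 6.11 and 7.75 in Top1 shRNA and 5.21, 5.67 and 5.52 in control shRNA. Neither pair overlapped and the directions were opposite, with effects of -0.66 and 1.73 (2.53, 0.44 and 2.23 by replicate) and a difference of -2.39 ± 0.37 (adjusted p with weights = 0.000767). The cyclin-dependent kinase Cdk1 (-0.55 and 1.82), Nusap1, which bundles spindle microtubules (-0.67 and 1.51), and the proliferation marker Mki67 had the next largest differences. Among fibroblast and mural genes, the matrix protein Ogn had 9.13, 9.39 and 9.63 in topotecan and 8.74, 9.27 and 9.86 in vehicle, which overlapped. It had 9.22, 10.68 and 9.84 in Top1 shRNA and 6.04, 7.46 and 7.49 in control shRNA. The smooth muscle genes Acta2 and Tagln rose by 2.12 and 2.17 with the knockdown, and the myosin light chain Myl9 by 2.68, against drug effects of -0.63, -0.31 and -0.36. Bmp6, a growth factor, rose 5.61-fold with the knockdown and fell 1.41-fold with the drug.

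Of 32 measured interferon-stimulated genes the knockdown raised 26 (81.2%, against 24.3% of all genes). The drug raised 3, where it raised 12.6% of all genes. The difference was negative for 27 (84.4%, against 18.7%), or 16 weighted. Their median effects were 0.08 with the drug and 1.4 with the knockdown. Ifit1, which binds foreign RNA, had 5.95, 6.38 and 7.07 in topotecan and 6.06, 6.35 and 7.29 in vehicle, which overlapped. It had 6.39, 7.5 and 8.33 in Top1 shRNA and 5.84, 5.26 and 4.86 in control shRNA. The difference was -2.15 ± 0.49 (adjusted p with weights = 0.0267). The chemokine Cxcl10 changed by -0.79 and 1.56, Ifi27 by -0.42 and 1.74, and the RNA sensor Ifih1 by 0.16 and 1.95. The list mean was 6.67 to 7.19 in topotecan and 6.67 to 7.38 in vehicle, and 6.73, 7.31 and 7.74 in Top1 shRNA and 6.16, 6.03 and 5.99 in control shRNA.

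Of 41 measured p53 targets the knockdown raised 26 (63.4%, against 24.3% of all genes). The drug raised 6, all of which the knockdown also raised, where the drug raised 12.6% of all genes. The difference was negative for 18 (43.9%, against 18.7% of all genes), or 14 weighted. It was negative for 32 without replicate 1 of Top1 shRNA, in which the median effect on the list was 0.02, against 1.44 and 1.25 in the others. The mean level of the list was 7.94 to 8.26 in topotecan and 7.88 to 8.28 in vehicle, and 7.85, 8.5 and 8.31 in Top1 shRNA and 7.74, 7.24 and 7.18 in control shRNA. The death receptor Fas changed by -0.1 and 1.97, and Ckap2, a spindle protein, by -0.46 and 1.87. Exoc4, a subunit of the vesicle-tethering exocyst, changed by -1.47 and 0.81. Of 22 targets of NRF2, the regulator of the oxidant response, the knockdown raised 14 (63.6%, against 24.3% of all genes) and the drug 2. The difference was negative for 15 of this list (68.2%, against 18.7%), or 12 weighted. Its mean level was 8.18 to 8.36 in topotecan and 8.2 to 8.49 in vehicle, and 8.3, 8.34 and 8.74 in Top1 shRNA and 7.79, 7.67 and 7.64 in control shRNA. In the interferon, p53 and NRF2 lists, too, control shRNA replicate 1 lay below every vehicle array of its array set. Hmox1, which degrades haem, changed by 0.23 and 2.37, and Gclc, which makes the first step of glutathione synthesis, by -0.26 and 1.09. Of 38 activity-regulated genes the knockdown raised 15 (39.5%, against 24.3% of all genes) and the drug 9, 7 of them shared. Of the differences 14 were negative (36.8%, against 18.7%), or 5 weighted. Fos had 7.53, 8.51 and 6.43 in Top1 shRNA and 7.73, 5.19 and 5 in control shRNA, so its knockdown effect of 1.51 came from replicates 2 and 3. Its difference of -1.78 was not called without the array set term or without control shRNA replicate 2 or 3.

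Promoters were searched for a motif of the interferon and of the proliferating cell list, in the 250 bases before the annotated start and on both strands. The core of the interferon-stimulated response element was taken as GAAA, any 2 bases and GAAA again, and the cell cycle homology region as TTTGAA. The first was in 7 of 25 interferon-stimulated genes with a promoter entry (28%), 1 of 23 proliferating cell genes (4.35%) and 304 of 10425 genes tested (2.92%). The second was in 3 of 25 (12%), 8 of 23 (34.8%) and 1310 of 10425 (12.6%). The windows of Ifit1 (chr19:34640639-34640888, plus strand) and Top2a (chr11:99024190-99024439, minus strand), from RefSeq (GRCm38.p6), are printed because these genes have 2 matches each. Capitals mark the matches, which are to the reverse complement for both stretches in Ifit1 and for the second stretch in Top2a.
Ifit1: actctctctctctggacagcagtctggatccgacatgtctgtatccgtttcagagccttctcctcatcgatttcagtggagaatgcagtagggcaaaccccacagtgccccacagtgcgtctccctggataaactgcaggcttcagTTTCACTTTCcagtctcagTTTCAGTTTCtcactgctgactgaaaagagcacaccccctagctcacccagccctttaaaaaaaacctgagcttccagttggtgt
Top2a: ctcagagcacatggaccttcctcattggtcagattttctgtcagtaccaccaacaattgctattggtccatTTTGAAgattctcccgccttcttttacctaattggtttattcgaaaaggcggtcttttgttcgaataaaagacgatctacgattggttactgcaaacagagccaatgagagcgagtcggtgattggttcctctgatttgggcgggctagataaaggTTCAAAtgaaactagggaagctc
Cdk1 and Mki67 also held 2 matches to TTTGAA each and Nusap1 none, while Cxcl10 held 1 match to the interferon element and Ifih1 none. A match is a string of letters and not a shown binding site.

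Neuronal gene lists had members that fell with both, and in several lists the knockdown lowered more members than the drug before weighting. Over all genes the knockdown lowered 26.5% and the drug 15.8%, or 14.7% and 21.2% weighted. Weighted counts of falls per list were made for the knockdown and not for the drug alone. The knockdown lowered 42 of 45 measured genes of synaptic vesicle release (93.3%), or 32 weighted. The drug lowered 24 (53.3%), 23 of them shared. The difference was positive for 15 (33.3%, against 15.3% of all genes) and negative for 2, or 5 and 1 weighted, and the 15 became 29 without Top1 shRNA replicate 1. Of 44 voltage-gated ion channels the knockdown lowered 40 (90.9%), or 34 weighted, and the drug 34 (77.3%). There were 13 positive and 8 negative differences (5 and 5 weighted). Without 1 array the positive count ranged over 8 (without control shRNA replicate 3) to 17 (without Top1 shRNA replicate 1). The negative count was 4 without Top1 shRNA replicate 1 or 3 and 12 without replicate 2. Of 11 GABA receptor genes the knockdown lowered all (9 weighted) and the drug 7 (63.6%), with 6 positive differences (4 weighted). Of 20 glutamate receptor genes 16 were lower in both, with 4 positive and 5 negative differences (0 and 2 weighted). Of 93 adhesion molecules 46 were lower in both, with 25 positive (26.9%, against 15.3% of all genes) and 21 negative differences (22.6%, against 18.7%), or 13 and 16 weighted.

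Slc17a7, the vesicular glutamate transporter VGLUT1, had 7.08, 7.85 and 8.23 in topotecan and 6.73, 8.42 and 8.79 in vehicle, the lowest being vehicle replicate 4. It had 6.97, 6.05 and 4.95 in Top1 shRNA and 8.26, 9.37 and 9.41 in control shRNA. The knockdown lowered it 8.15-fold, and the difference of 2.52 ± 0.63 (adjusted p = 0.00545) missed the threshold when weighted (0.0546). Cacna1g, a T-type calcium channel (66 kb), had 6.32, 6.86 and 7.05 in topotecan and 6.59, 7.06 and 7.54 in vehicle, which overlapped. It had 6, 5.41 and 5.16 in Top1 shRNA and 9.02, 7.81 and 7.75 in control shRNA. Its effects were -0.32 and -2.67, a difference of 2.35 ± 0.25 (adjusted p with weights = 0.000847). The adhesion molecules Cdh9 (-0.5 and -2.47) and Slitrk3 (-0.09 and -2.03) and the sodium channel Scn3a (-0.06 and -1.66) also had the larger fall with the knockdown. In the reverse direction the glutamate receptor subunit Gria3, which was 8.71 to 9.03 in topotecan and 9.77 to 10.05 in vehicle, had 9.95, 10.5 and 10.44 in Top1 shRNA and 9.87, 9.89 and 9.79 in control shRNA.

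Of 16 markers of excitatory neurons the knockdown lowered 14 (87.5%, against 26.5% of all genes), or 10 weighted. The drug lowered 7 (43.8%, against 15.8%) and raised 2, where it raised 12.6% of all genes. The difference was positive for 8 (50%, against 15.3% of all genes) and negative for 1, or 4 and 1 weighted. The cortical transcription factors Tbr1 (0.46 and -1.21) and Neurod2 (0.21 and -1.34) and the glutamate transporter Slc17a6 (0.51 and -1.03) had positive differences. Of 16 interneuron markers 6 were lower in both, with 5 positive (31.2%, against 15.3% of all genes) and 3 negative differences (18.8%, against 18.7%), or 2 and 3 weighted. The neuropeptide Sst changed by -2.61 and -1.47 and the secreted guidance protein Reln by -2.5 and -1.14, while the calcium buffer Calb1 changed by -0.36 and -2.18. Vehicle replicate 4 was the lowest vehicle for the lists of excitatory markers (7.43, the others 7.88 to 8.14) and vesicle release (8.46, the others 8.92 to 9.02). Without it the counts of positive differences were 8 and 14.

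**Figure D5:**
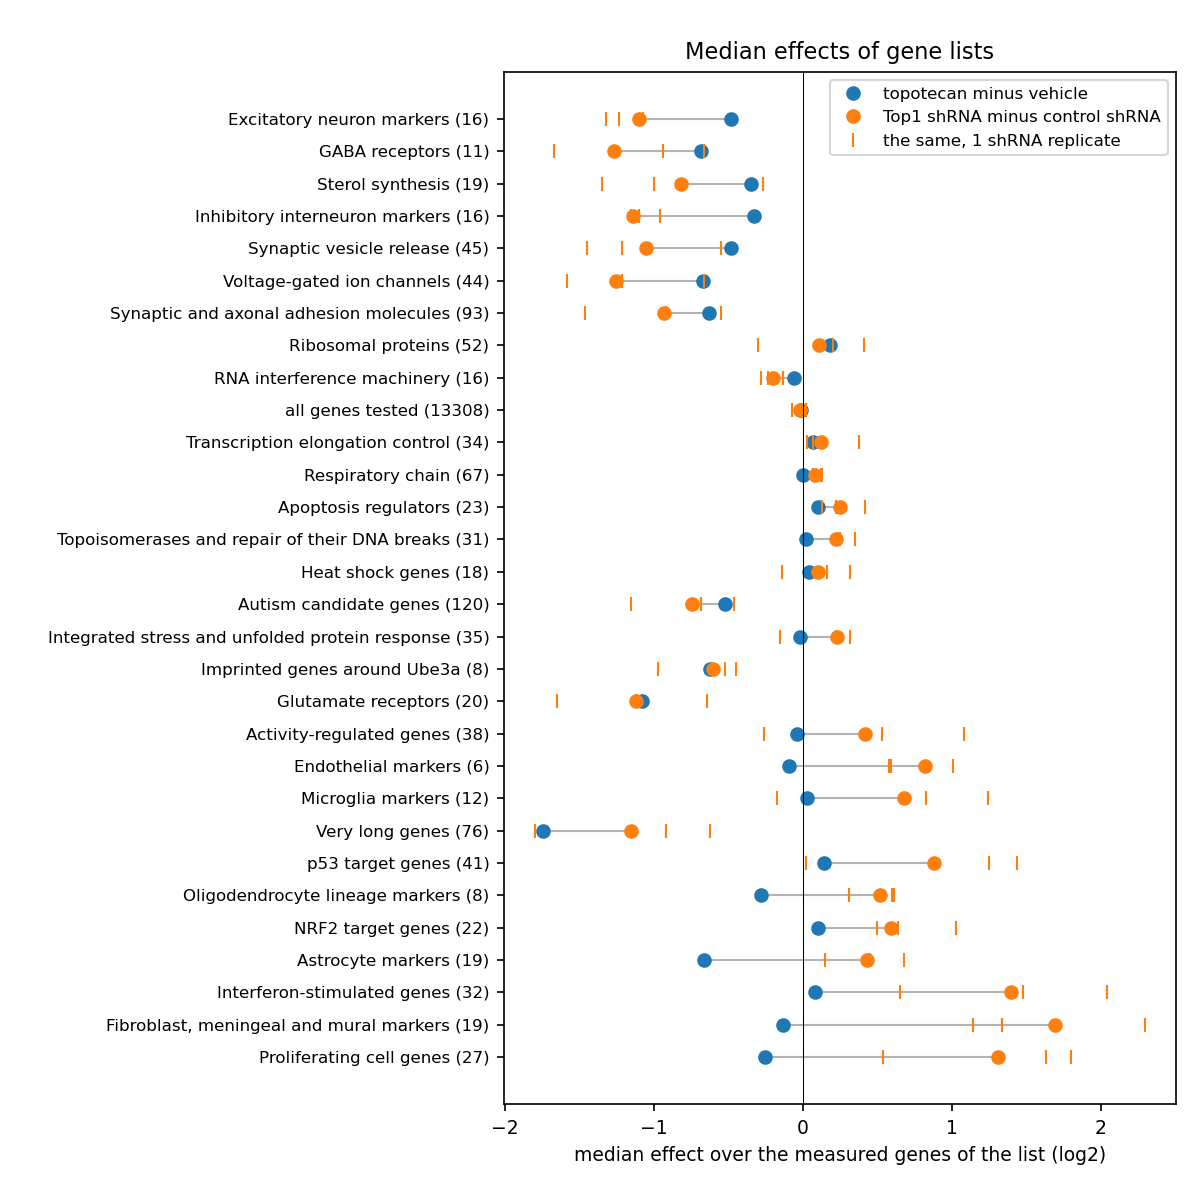
Median effect over the measured genes of each list, in log2, for topotecan (blue) and Top1 shRNA (orange), with orange ticks for single shRNA replicates and the number of genes in brackets. Lists are ordered by the median difference, from proliferating cell genes (-0.25 and 1.31) at the bottom to excitatory neuron markers (-0.48 and -1.1) at the top. Astrocyte markers lie on opposite sides of 0.

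The largest positive differences belonged to Mc4r, Sla, Slc17a7, Aldh1l2, Cacna1g, Trhr, Hrk, Rab33a, Tmem74 and Ntsr1, of 2.8 to 66 kb. Mc4r, the melanocortin receptor known for the control of feeding, had 7.54, 7.86 and 7.93 in topotecan and 6.59, 6.81 and 7.37 in vehicle. It had 6.41, 5.6 and 6.32 in Top1 shRNA and 7.6, 8.28 and 8.06 in control shRNA. Neither pair overlapped, and the directions were opposite (0.88 and -1.87). Trhr, the receptor of thyrotropin-releasing hormone, likewise changed by 0.88 and -1.44, and Hrk, a pro-death member of the BCL2 family, by 0.6 and -1.7. Aldh1l2, a mitochondrial enzyme of folate metabolism, changed by 0.55 and -1.95. The adaptor Sla changed by -0.49 and -3.03 and the neurotensin receptor Ntsr1 by -0.2 and -2.27, with no called drug effect.

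Among the other topoisomerases and the enzymes that clear their trapped complexes, Top2a, described above, had the largest difference. Top2b, the topoisomerase II of neurons, changed by 0.05 and -0.08, with -1.04, 0.37 and 0.43 by shRNA replicate, and its difference of 0.13 turned to -0.35 (adjusted p = 0.0402) without replicate 1. Tdp1, which removes topoisomerase I from DNA ends, changed by -0.06 and -0.13. Tdp2, which does so for topoisomerase II, changed by 0.11 and 0.4, the mitochondrial Top1mt by 0.03 and 0.15, and Top3a by 0.1 and 0.24. Top3b, which also acts on RNA, changed by 0.02 and 0.45, and its difference of -0.43 (adjusted p = 0.0218) was not called when weighted (0.135). Of 31 genes of this list and of the repair of such breaks, the knockdown raised 12 (38.7%, against 24.3% of all genes) and lowered 3 (9.68%, against 26.5%), or 5 and 2 weighted. The drug raised none and lowered 1, Top2a.

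At the imprinted region around Ube3a the 2 treatments acted alike on some probe sets and not on others. Ube3a encodes a ubiquitin ligase expressed from the maternal copy in neurons, and the long transcript Snhg14 runs antisense to the paternal copy. Snhg14 fell by 1.22 with the drug and by 1.12 with the knockdown, a difference of -0.1 (95% interval -0.6 to 0.4). Ipw, a transcript of the same region, had 6.15, 6.8 and 6.96 in topotecan and 9.53, 10.08 and 10.12 in vehicle. It had 9.57, 6.89 and 8.68 in Top1 shRNA and 10.29, 9.49 and 9.19 in control shRNA. The effects on Ipw were -3.28 and -1.28, a difference of -2 ± 0.4 (adjusted p with weights = 0.00669). Ube3a changed by 0.21 and -0.14 on its brightest probe set, and neither effect passed the threshold. A further probe set listed under Ube3a changed by -4.73 and -1.8, with 9.27, 6 and 9.01 in Top1 shRNA and 10.12, 9.8 and 9.78 in control shRNA. The strand or transcript that this probe set reads is not given in the sources used here.

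The remaining lists showed smaller or partial differences. Of 19 genes of sterol synthesis the knockdown lowered 16 (84.2%, against 26.5% of all genes), or 11 weighted. The drug lowered 6 (31.6%, against 15.8%). There were 9 positive differences (3 weighted), which became 15 without Top1 shRNA replicate 1 and 5 without replicate 2. Of 120 autism candidate genes 61 were lower in both, with 21 positive (17.5%, against 15.3% of all genes) and 29 negative differences (24.2%, against 18.7%), or 7 and 20 weighted. Of 35 stress response genes (integrated stress, unfolded proteins) the knockdown raised 14 (40%, against 24.3% of all genes). It lowered 7 (20%, against 26.5%), and weighted it raised 7 and lowered 5. The drug raised 2 and lowered 3, fewer than its shares of all genes (12.6% and 15.8%). Of 12 microglia markers the knockdown raised 8 (66.7%), of 8 oligodendrocyte lineage markers 5 (62.5%) and of 6 endothelial markers 3 (50%). Over all genes it raised 24.3%. The drug raised 1, none and 1 of these markers. Weighted, the knockdown raised 1, 1 and 3 of them, where it raised 14.4% of all genes. The mean level of microglia markers was 6.61, 5.78 and 4.9 in Top1 shRNA and 5.42, 5.02 and 5.04 in control shRNA, so replicate 3 lay below every control. Of 52 ribosomal protein genes the drug raised 13 and the knockdown 9 (17.3%, against 24.3% of all genes), or 1 weighted, with 1 called difference, Rps25, which was lost when weighted (adjusted p = 0.233). For 67 respiratory chain genes 9 differences were negative and none positive, against 18.7% and 15.3% of all genes. Of 18 heat shock genes 6 differed (4 negative, 2 positive, 1 negative when weighted), of 34 genes of transcription elongation 5, of 23 apoptosis regulators 9, and of 16 genes of RNA interference 6, where 33.9% of all genes differed.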

How the data were processed

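Affymetrix Expression Console and RMA are named in the submitters' processing notes. The deposited intensity of each probe set is linear, and its log2 was taken here. Mean levels fell into 2 array sets, which no label names, and set was a covariate. Of 41345 probe sets 23521 had 1 gene symbol, 1814 several and 16010 none. For each gene the brightest with 1 symbol was used (mean over 34 arrays of the type), and genes under the 40th percentile (5.01) were left out, which kept 13308 of 22180. Lengths came from RefSeq (GRCm38.p6) for 99.8%. The number of arrays limits the precision.

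All 18 arrays entered 1 limma 3.58.1 fit (R 4.3.3, lmFit and eBayes, 13 residual degrees of freedom, Benjamini-Hochberg 0.05). The fit was tested on simulated data, where equal spread gave too many knockdown and difference calls and weights per experiment (arrayWeights) came close to the set rate. Scores were compared by exact permutation. Members, lists and tests were chosen with earlier results of these data known. Groups follow sample titles, which some descriptions contradict. Named were fixed genes, the 10 largest differences each way, the 10 largest shared falls, shared rises and opposite effects, up to 4 members per list, and 5 of equal size. Predicted genes were not named, except C130071C03Rik, chosen after its value was seen as the gene around Mir9-2. Same-numbered arrays did not deviate together in the topotecan experiment (correlations -0.53 to 0.25) and not in every shRNA pair (0.32, 0.06 and 0.29), so numbers were not taken as pairs. Alternatives changed the probe set, filter, normalization, set term, weights, block and arrays.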

Additional observations from a re-analysis of the deposited data

Results flagged for a closer look

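Among 372 groups of 6 arrays tested (named genes, list means and the score), 44 held 1 array set apart from the others by more than Dixon's 95% limit, which chance gives in about 1 in 20 groups. No cause was tested.

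Vehicle replicate 4 was that array in 30 of the 44. It was low in log2 level for Slc17a7 (6.73), Rab33a (7.25), Frmpd4 (6.67), Cntn5 (8.58), Cdh9 (7.11), Mdga2 (9.16), Slitrk3 (6.97), Grin2a (6.96), Scn3a (7.64), Scn2b (6.45) and Syt7 (7.3). It was also low for Vldlr (8.73), Ipw (9.53), Ndn (8.78), Fgf14 (8.05), Mir9-2 (7.23) and Apba1 (9.04). It was high for Fas (8.55), Ptpn14 (9.37) and Ifi27 (7.77). Its long-gene score of 0.415 was below the other vehicles (0.476 to 0.497). Its mean level was low over very long genes (7.98), autism candidates (8.48), adhesion molecules (8.12), glutamate receptors (7.85), GABA receptors (8.72), ion channels (7.67), vesicle release (8.46) and excitatory markers (7.43). It was high over the fibroblast list (8.43).

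In topotecan, replicate 3 was low for Top1 (9.23), replicate 1 for Nkain2 (6.57), and replicate 6 for Mdga2 (6.3), Cntnap5b (4.74) and Lss (6.26). Replicate 4 was low for Bag3 (7.23), Mki67 (7.16) and the mean of proliferating cell genes (6.69), and high for Tbr1 (7.5). Replicate 5 was high for Hsf2 (8.97) and for the mean of topoisomerase and repair genes (7.47). In vehicle, replicate 1 was high for Top2b (9.18), replicate 6 low for Olig1 (7.93), and replicate 5 low for the mean of activity-regulated genes (7.42).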

How the results depend on the processing

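Without the array set term the calls numbered 2218 for the drug, 2835 for the difference, 1170 in both and 221 in opposite directions. With weights per experiment they were 3876 for the knockdown and 2320 for the difference, and 3226 for the knockdown when each experiment was fitted alone. With shRNA replicate 1 only, r was 0.21 and 740 genes went in opposite directions. Under a replicate block 280 genes did, and 8 of 156 named differences lost their call; the pairing check did not bear the numbers out. Leaving out 1 array gave 3215 to 4768 drug calls, 5748 to 7677 knockdown calls, 3661 to 5716 differences, 1654 to 2665 in both, 360 to 579 in opposite directions, and r of 0.35 to 0.5. The long-gene score difference was then -0.362 to -0.23, its exact permutation p 0.0179 to 0.0357, the smallest that so few arrays allow. The Ube3a difference became -1.29 with the mean of probe sets and -2.93 with the one brightest in controls, which gave -1.17 for Tenm1. Top2b turned to -0.35 with shRNA replicates 2 and 3 only, and spanned -0.35 to 0.33 without 1 array. With replicate 1 only, differences turned for Pla2g10os (1.58), Hspb1 (1.16), Dhcr7 (-0.6), Fdps (-0.24) and Apba1 (-0.89), and knockdown effects for Olfr1184 (-0.14), Pla2g10os (-0.3) and Sly (-0.47). The cause was not tested.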
